A study of Mus musculus with 6 samples.

Results

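The genes described here are 9 genes used as surface and phagocyte markers of alveolar macrophages, namely Marco, Msr1, Cd68, Mrc1, Cd14, Csf1r, Itgax, Emr1 and Ear2. They were taken as every row of the lung array table whose gene symbol equals one of these names, which gave 12 probes of the 25697 on the array and 9 genes of 18138 gene symbols. Whole-lung RNA of male mice of the FVB strain, taken on postnatal day 6, was hybridised to Illumina mouse expression BeadChips, one array for each of 3 mice labelled hSRY-OFF and 3 labelled hSRY-ON. The hSRY-ON mice expressed a FLAG-tagged human SRY transgene, linked to EGFP, under the CAG promoter, which is active in most cell types. Human SRY is the testis-determining gene of the Y chromosome. The transgene was inserted as a single copy at the H11 locus and was switched on in the early embryo by Cre recombinase that the egg of a Ddx4-Cre mother supplied, and only hSRY-ON mice that had not inherited that Cre transgene were used. The study gives the name hSRY-OFF to mice that carry the transgene without Cre recombination, a state in which it expresses DsRed2 and not SRY. Elsewhere the study used littermates without the transgene as controls. It does not say which cross or litters gave the hSRY-OFF mice of these arrays. Any difference of cross, mother or litter between the groups therefore cannot be told apart from SRY expression. The comparison asks how the lung transcriptome differed between mice with and without SRY expression outside the testis. The study reports that hSRY-ON pups grew slowly, lacked milk in the stomach, died early and had retarded alveolar development. A direct effect of SRY on a gene cannot be told apart here from effects of that condition. No probe for the human transgene was analysed, so its expression was not checked on these arrays.

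Alveolar macrophages are the resident phagocytes of the air spaces. They take up inhaled particles, bacteria and spent surfactant, and their precursors enter the lung before birth and mature in the first days of postnatal life under the growth factor GM-CSF. Their surface carries scavenger receptors (Marco, Msr1), a mannose-binding lectin (Mrc1), an integrin chain (Itgax, also called CD11c) and receptors for bacterial lipopolysaccharide and for growth factors (Cd14, Csf1r), while Cd68 lies mostly in endosomes and lysosomes. Several of these genes are also expressed by other macrophages, monocytes or dendritic cells, so none of them marks alveolar macrophages alone.

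The macrophage lineage factor PU.1 binds purine-rich sites that hold a GAGGAA core, so the sequence before the start of 3 members that differed between the groups was searched for these letters. RefSeq promoter sequence (assembly GRCm38.p6) was found for 5 of the 9 members, and the windows of Marco, Cd68 and Mrc1, each covering the 250 bases before the start of the gene, are shown 5′ to 3′ on the gene's own strand. Capitals mark GAGGAA or, where the motif lies on the opposite strand, its complement TTCCTC.
Marco: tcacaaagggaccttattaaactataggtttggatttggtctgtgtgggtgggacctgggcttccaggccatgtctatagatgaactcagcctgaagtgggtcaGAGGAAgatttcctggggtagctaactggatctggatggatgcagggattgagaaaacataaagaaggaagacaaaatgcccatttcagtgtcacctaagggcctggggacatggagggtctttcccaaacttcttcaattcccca
Cd68: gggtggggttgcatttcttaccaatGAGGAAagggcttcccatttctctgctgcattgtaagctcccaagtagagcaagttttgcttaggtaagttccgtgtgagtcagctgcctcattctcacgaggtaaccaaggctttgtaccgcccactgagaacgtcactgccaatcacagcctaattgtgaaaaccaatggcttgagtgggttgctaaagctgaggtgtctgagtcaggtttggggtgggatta
Mrc1: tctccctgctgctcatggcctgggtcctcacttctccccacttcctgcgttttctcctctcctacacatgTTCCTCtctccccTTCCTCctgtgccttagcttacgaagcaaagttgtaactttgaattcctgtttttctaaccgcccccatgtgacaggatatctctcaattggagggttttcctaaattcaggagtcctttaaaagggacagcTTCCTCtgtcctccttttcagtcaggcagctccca
The Marco window is chr1:120505025-120505274 on the minus strand and holds 1 match, which begins 146 bases before the start of the gene. The Cd68 window is chr11:69666171-69666420 on the minus strand and holds 1 match, 225 bases before the start. The Mrc1 window is chr2:14229164-14229413 on the plus strand and holds 3 matches on the opposite strand, 180, 167 and 35 bases before the start. Of all 32851 windows of the same length in the table, 23.3% hold GAGGAA on either strand. The Cd68 window also holds TGANTCA, the AP-1 motif, 149 and 24 bases before the start, against 6.75% of all windows that hold it at least once, and neither CACGTG, an E-box held by 6.02% of windows, nor TATAAA, held by 12.4%, occurs on either strand in any of the 3. These matches describe the letters only, since no binding was measured. Members that were not called were not searched, so the matches give no comparison between called and other members.

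Of the 12 probes, 10 probes of 7 genes were detected on at least 3 arrays and were tested. A probe was detected on an array where its detection p-value, which compares its signal with that of the negative controls, was under 0.05. Values are background-corrected, quantile-normalized intensities on the log2 scale, and a probe was called where its limma p-value, adjusted over all tested probes, was under 0.05. Marco, Cd68, Mrc1 and Cd14 were higher in hSRY-ON lungs, by between 2.16-fold and 5.89-fold, and none of the 10 probes was lower. The probes of Csf1r, Emr1 and Ear2 did not pass the test, and those of Msr1 and Itgax were not detected on any array. The 4 probes called higher are 40% of the member probes tested, beside 13.6% of all 13841 tested probes that were called higher and 13.3% that were called lower. The members and the gene lists were chosen with earlier results of these data known, so these shares are a description and no test of the set. The groups did not overlap for the same 4 probes, while 46.6% of all tested probes had groups that did not overlap, so separation of 3 against 3 values is common on these arrays. The median change of the 10 member probes was 0.44 on the log2 scale, and that of the 7 genes, each by its brightest probe, was 1.11, beside -0.03 over all tested probes. In RNA from whole lung, more cells of a type cannot be told apart from more RNA of a gene per cell.

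**Figure D1:**
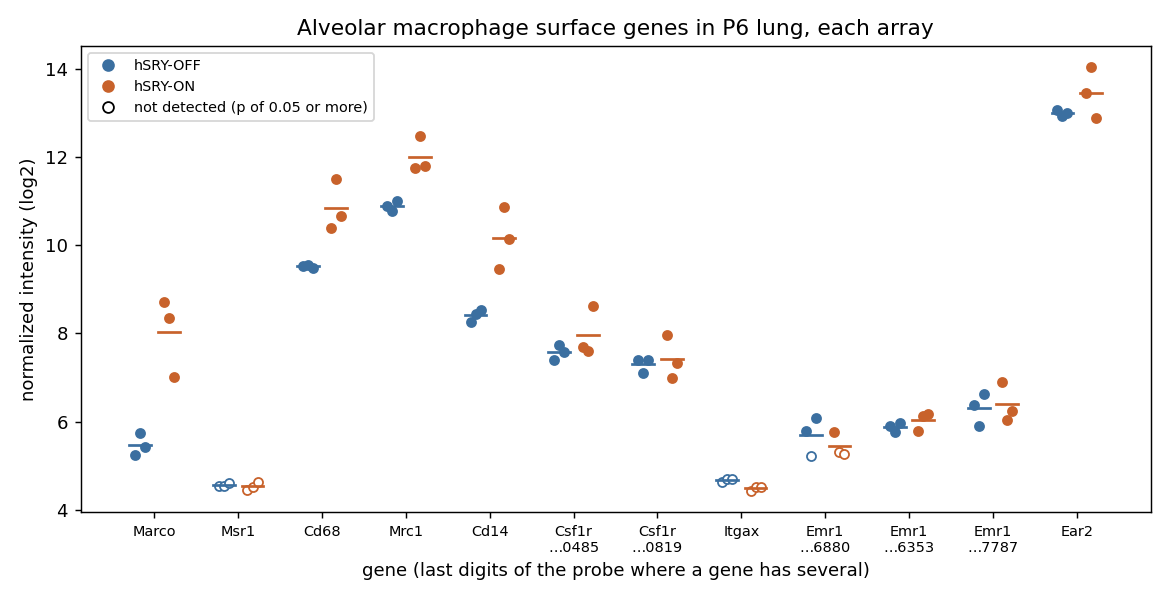
Normalized log2 intensity of the 12 member probes on each of the 6 arrays, with probes along the horizontal axis. Points are single mice, open where the probe was not detected on that array, and short lines are the group means. Marco, Cd68, Mrc1 and Cd14 show hSRY-ON values above all 3 hSRY-OFF values, whereas the groups overlap for the other probes that were tested.

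Marco encodes a class A scavenger receptor that binds bacteria and unopsonised particles, and it is among the most characteristic genes of alveolar macrophages. Its probe (ILMN_1229922) read 5.24, 5.74 and 5.43 on the log2 scale in the hSRY-OFF mice and 8.70, 8.35 and 7.02 in the hSRY-ON mice. Every hSRY-ON value lay above every hSRY-OFF value, with hSRY-ON replicate 3 the lowest of its group. As deposited, before normalization, the intensities were 173.8, 183 and 198.6 in hSRY-OFF and 508.7, 432.2 and 273.3 in hSRY-ON. The means were 5.47 ± 0.25 and 8.03 ± 0.89 (SD, n = 3 each), a log2 change of 2.56 (SE 0.41, 95% confidence interval 1.59 to 3.53), or 5.89-fold (3.001 to 11.6), with an adjusted p of 0.00642 by limma. The control signal was close to background, with detection p-values of 0.0439, 0.01 and 0.0439 on the hSRY-OFF arrays. The size of the change moved with the background correction, and without it the log2 change was 1.17 with an adjusted p of 0.00865.

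Msr1, the other class A scavenger receptor of the set, which takes up modified lipoproteins, was measured by ILMN_2619240 and could not be compared. The probe was not detected on any of the 6 arrays, and its detection p-values ranged from 0.525 to 0.967. Its values were 4.54, 4.53 and 4.62 in hSRY-OFF and 4.45, 4.51 and 4.63 in hSRY-ON, which lie at the background level of the arrays. This does not show that Msr1 RNA was absent.

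Cd68 (macrosialin) is a glycoprotein of phagocyte endosomes and lysosomes that is found in most macrophages. Its probe (ILMN_2689785) read 9.53, 9.54 and 9.48 in the hSRY-OFF mice, which lay close together, and 10.38, 11.49 and 10.66 in the hSRY-ON mice, which spread more widely and all lay higher. The means were 9.52 ± 0.03 and 10.84 ± 0.58 (SD, n = 3 each), and the log2 change was 1.33 (SE 0.27, 95% confidence interval 0.69 to 1.97), or 2.51-fold, with an adjusted p of 0.0135 by limma. The deposited intensities were 875.9, 830.5 and 989.7 in hSRY-OFF and 1319.1, 3053.6 and 1871.5 in hSRY-ON. The call was lost when hSRY-OFF replicate 1 or replicate 2 was left out, although the change hardly moved, with a log2 change of 1.34 and an adjusted p of 0.0506 in the former case and 1.35 and 0.0506 in the latter.

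Mrc1, the mannose receptor (CD206), is a C-type lectin that binds and internalises mannosylated glycoproteins. Its probe (ILMN_1239430) read 10.90, 10.78 and 11.00 in hSRY-OFF and 11.74, 12.47 and 11.79 in hSRY-ON. The hSRY-ON mice were all higher, replicate 2 most of all, and the other two of that group differed little from each other. The means were 10.89 ± 0.11 and 12.002 ± 0.41 (SD, n = 3 each), and the log2 change was 1.11 (SE 0.21, 95% confidence interval 0.62 to 1.60), or 2.16-fold, with an adjusted p of 0.0105 by limma. The signal was well above background in both groups, with deposited intensities of 1721.4 to 2514 in hSRY-OFF and 3228.7 to 5903.9 in hSRY-ON.

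Cd14 is the co-receptor that hands lipopolysaccharide to the Tlr4 and Ly96 complex, and it is expressed by monocytes and neutrophils as well as macrophages. Its probe (ILMN_2742075) read 8.25, 8.44 and 8.54 in the hSRY-OFF mice and 9.46, 10.86 and 10.14 in the hSRY-ON mice. The hSRY-ON values were all higher, and they spanned a wider range than the hSRY-OFF values. The means were 8.41 ± 0.15 and 10.15 ± 0.70 (SD, n = 3 each), and the log2 change was 1.74 (SE 0.33, 95% confidence interval 0.97 to 2.51), or 3.35-fold (1.96 to 5.71), with an adjusted p of 0.0103 by limma.

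Csf1r is the receptor for the growth factors Csf1 and Il34, on which many tissue macrophages depend. It was measured by 2 probes, neither of which passed the test. The probe ILMN_1230485 read 7.39, 7.74 and 7.58 in hSRY-OFF and 7.70, 7.61 and 8.62 in hSRY-ON, a log2 change of 0.41 (SE 0.27, 95% confidence interval -0.24 to 1.05) with an adjusted p of 0.305 by limma. The probe ILMN_2710819 read 7.39, 7.11 and 7.40 in hSRY-OFF and 7.96, 6.98 and 7.33 in hSRY-ON, a log2 change of 0.12 (SE 0.25, 95% confidence interval -0.46 to 0.71) with an adjusted p of 0.737. The groups overlapped for both probes, and the probes had their highest value in different hSRY-ON mice, replicate 3 for the former and replicate 1 for the latter. Of the ligands of the receptor, Csf1 read 5.82 ± 0.07 in hSRY-OFF and 5.95 ± 0.31 in hSRY-ON (SD, n = 3 each) and did not pass the test, with a log2 change of 0.12 and an adjusted p of 0.615, and Il34 has no probe under that name.

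Itgax (CD11c), the integrin alpha chain that separates alveolar macrophages from most other lung macrophages in flow cytometry, was not detected on any array by ILMN_2727172. Its values were 4.63, 4.70 and 4.70 in hSRY-OFF and 4.42, 4.52 and 4.52 in hSRY-ON, with detection p-values between 0.382 and 0.987, and it was not tested. The probe of Itgb2, the beta chain with which Itgax pairs, was not detected either, and Itgam, the alpha chain of the related receptor CR3, was detected on 1 hSRY-ON array. These array signals give no level for the CD11c receptor in the lungs of either group.

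Emr1, now named Adgre1 and known as F4/80, is an adhesion receptor of mouse macrophages and eosinophils. None of its 3 probes passed the test, and the groups overlapped for each. The log2 change was -0.26 (SE 0.25, 95% confidence interval -0.84 to 0.32, adjusted p = 0.469) for ILMN_1216880, 0.15 (SE 0.14, -0.19 to 0.49, adjusted p = 0.480) for ILMN_2756353 and 0.09 (SE 0.27, -0.54 to 0.72, adjusted p = 0.826) for ILMN_2847787, all by limma. The probes read between 5.22 and 6.62 in hSRY-OFF and between 5.26 and 6.89 in hSRY-ON. The first was detected in only 2 hSRY-OFF mice and 1 hSRY-ON mouse. The highest upper bound of the 3 intervals was 0.72.

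Ear2 belongs to the eosinophil-associated ribonucleases, several of which are expressed in mouse lung. Its probe (ILMN_1232396) read 13.07, 12.92 and 13.002 in hSRY-OFF and 13.45, 14.04 and 12.89 in hSRY-ON. Replicates 1 and 2 of hSRY-ON lay above all controls and replicate 3 lay below them. The log2 change was 0.46 (SE 0.27, 95% confidence interval -0.17 to 1.10) with an adjusted p of 0.239 by limma. It passed the test without hSRY-ON replicate 3, with a log2 change of 0.75 and an adjusted p of 0.0346, and it was 0.18 without hSRY-ON replicate 2. The genes of this family are close copies of each other, and whether the probe also bound RNA of its relatives was not tested. Of relatives that were picked after their values were seen, Ear4 read 13.51 ± 0.03 and 14.20 ± 0.63 (adjusted p = 0.123 by limma) and Ear12 read 8.86 ± 0.30 and 9.93 ± 1.30 (adjusted p = 0.216), all as mean ± SD with n = 3 in each group. Ear6 read 6.87, 6.40 and 7.19 in hSRY-OFF and 5.06, 4.44 and 5.39 in hSRY-ON, where it was detected on only 1 array, so it passed the filter through the group in which it was higher and its hSRY-ON level is only a bound.

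**Figure D2:**
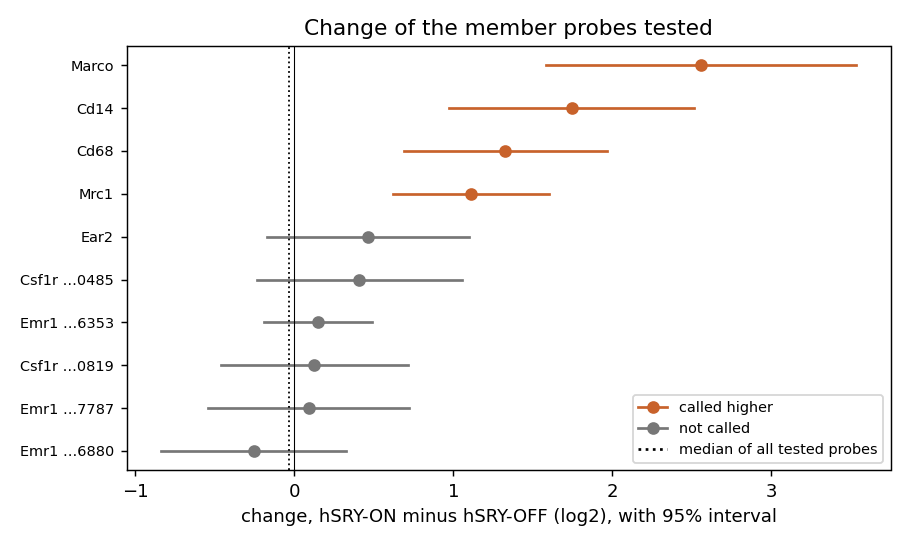
Log2 change in hSRY-ON relative to hSRY-OFF for the 10 member probes tested, with 95% confidence intervals from the limma fit and a dotted line at the median of all tested probes. Marco, Cd14, Cd68 and Mrc1 lie to the right of 0 and were called, and the intervals of the 2 Csf1r probes, the 3 Emr1 probes and Ear2 include 0.

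For Marco, Cd68, Mrc1, Cd14 and Ear2 the spread between the hSRY-ON mice was wider than that between the controls, with SDs of 0.41 to 0.89 against 0.03 to 0.25. This was not particular to them. The Csf1r probes had SDs of 0.56 against 0.18 and 0.50 against 0.16, and Cd74, outside the members, 0.98 against 0.04. Some probes went the other way, such as ILMN_1216880 of Emr1 (0.27 against 0.44). Relative to the hSRY-OFF mean, Marco was higher by 3.24, 2.89 and 1.55 on the log2 scale in hSRY-ON replicates 1, 2 and 3. Cd68 was higher by 0.86, 1.98 and 1.14, Mrc1 by 0.85, 1.58 and 0.90, and Cd14 by 1.05, 2.45 and 1.73. The differences for Ear2 were 0.45, 1.04 and -0.10. Cd68, Mrc1, Cd14 and Ear2 were thus highest in replicate 2, whereas Marco was highest in replicate 1, and replicate 3 was the lowest for Marco and Ear2 but not for Cd68, Mrc1 and Cd14. With 3 mice, this order is a description.

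**Figure D3:**
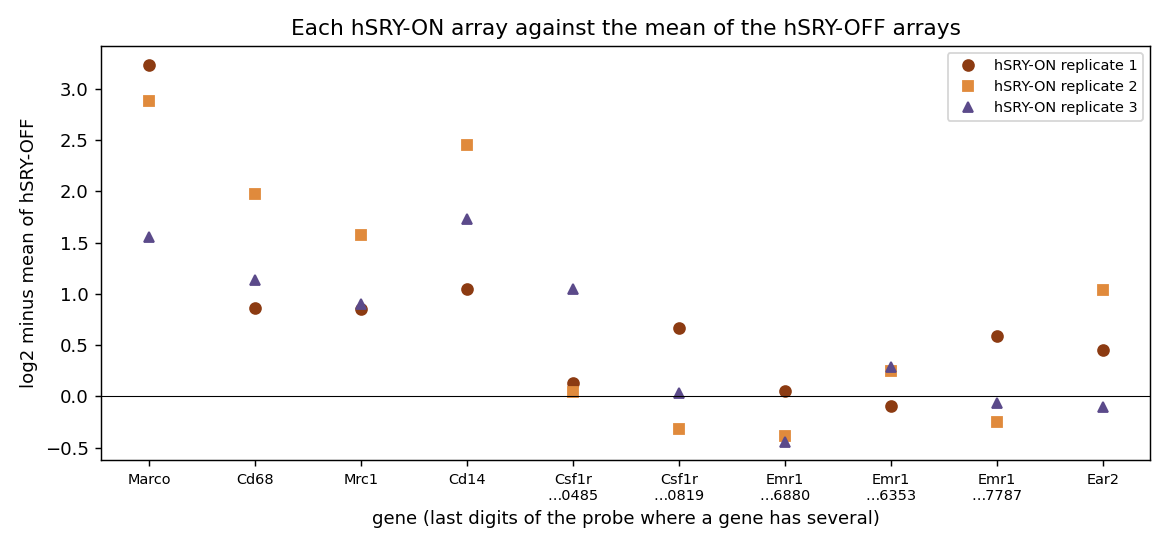
Difference of each hSRY-ON array from the hSRY-OFF mean, on the log2 scale, for the 10 member probes tested, with one symbol per hSRY-ON mouse. Replicate 2 is the highest for Cd68, Mrc1, Cd14 and Ear2, replicate 1 for Marco, and the symbols of the Csf1r and Emr1 probes change order from probe to probe.

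The genes whose values over the 6 arrays followed Marco most closely, by Pearson's r, were Acot1, Prss23, Flot1, Cyp2a5 and Ifit3, with r from 0.996 to 0.999. Members themselves were left out of this ranking. The 6 points are the same arrays for all genes and include the difference between the groups, so the likeness is a description.

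Other genes of alveolar macrophages gave few measurable probes. Of 12 genes in this list, 10 have a probe and 4 were tested, of which 2 were higher, none was lower and the median log2 change was 1.21. Chi3l3 (now Chil3), a chitinase-like protein secreted by alveolar macrophages, had a log2 change of 3.76 (adjusted p = 0.00840 by limma) and rose from 8.93, 7.65 and 8.92 in hSRY-OFF to 12.67, 13.32 and 10.79 in hSRY-ON. Krt79, a keratin gene, rose by 1.77 (adjusted p = 0.00215; 1.12 without background correction), from 7.03, 7.05 and 6.94 to 9.22, 8.67 and 8.45. For both genes all hSRY-ON values were above all hSRY-OFF values, and Chi3l3, as Marco, was lowest in hSRY-ON replicate 3. Pparg, the nuclear receptor on which alveolar macrophage maturation depends, read 8.72, 8.58 and 8.37 in hSRY-OFF and 9.10, 9.71 and 8.78 in hSRY-ON and did not pass the test, with a log2 change of 0.64 and an adjusted p of 0.0901. Chi3l3 is close in sequence to Chi3l4, whose own probe (ILMN_1222707) was not detected on any array, and binding of one transcript by probes of the other was not tested. Car4, a carbonic anhydrase that lung endothelium also expresses, went the other way without passing the test, with 10.10, 10.03 and 10.20 in hSRY-OFF and 10.18, 9.03 and 9.30 in hSRY-ON (-0.60, adjusted p = 0.152), and it was called lower when hSRY-ON replicate 1 was left out (-0.94, adjusted p = 0.00611). Siglecf, Atp6v0d2, Cidec, Fabp1 and Fabp4 were not detected on enough arrays to be tested. Siglecf, a defining surface marker of these cells, was therefore no check on the cell type.

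Among 16 genes common to macrophages, 11 were tested and 5 were higher, and the median log2 change was 0.75, or 0.29 without background correction. Mertk, a receptor for the uptake of dying cells, rose by 1.78 (adjusted p = 0.00196 by limma), and Fcgr3, a receptor for the constant part of IgG, rose by 1.05 (adjusted p = 0.00345). Laptm5, Tyrobp and Lgals3 were the remaining genes that rose by their brightest probe, and the count of 5 was 3 without hSRY-OFF replicate 1 or 2, where Laptm5 and Lgals3 were lost. The lysozyme genes were not called by their brightest probes, which read 14.90 to 15.29, but dimmer probes were. ILMN_2736867 of Lyz1 was higher by 0.74 (adjusted p = 0.0477). Of the 4 Lyz2 probes 2 were called, among them ILMN_1252076, higher by 0.40 (adjusted p = 0.0404). Ptprc, the common leukocyte antigen, was not detected on enough arrays to be tested. Among 19 other scavenger and phagocytic receptors, 11 were tested, 4 were higher and 1 was lower, with a median of 0.45, or 0.23 without background correction. Clec4d, a C-type lectin of myeloid cells, rose by 2.93 (adjusted p = 0.000500; 1.48 without background correction), and Scara5, a ferritin receptor that is best known outside the macrophage lineage, rose by 2.78 (adjusted p = 0.000591). Colec12, a collectin of endothelium, fell by 0.93 (adjusted p = 0.0275; a change of -0.53 without background correction), a call that was lost when any one control, or hSRY-ON replicate 1 or 2, was left out. Cd36, a receptor for oxidised lipoproteins and fatty acids, was not tested.

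Cd14 was accompanied by part of its pathway. Of 18 genes of the Cd14 and Toll-like receptor pathway, 15 were tested, 6 were higher and none was lower, and the median log2 change was 0.61, or 0.26 without background correction. Lbp, which delivers lipopolysaccharide to Cd14, rose by 0.92 (adjusted p = 0.00668 by limma), and Tlr2, a receptor for bacterial lipoproteins, rose by 1.33 (adjusted p = 0.00967). Tlr4 rose by 0.88 (adjusted p = 0.0207; 0.48 without background correction) by the one of its 2 probes that was detected, with 6.75, 6.76 and 7.37 in hSRY-OFF and 7.79, 8.07 and 7.67 in hSRY-ON. Ly96 (MD-2), which binds lipopolysaccharide together with Tlr4, read 7.08, 7.12 and 7.02 in hSRY-OFF and 7.46, 6.85 and 7.19 in hSRY-ON, with a change of 0.09 and an adjusted p of 0.713. The call for Tlr4 was lost in the fits without hSRY-OFF replicate 1 or 2 or hSRY-ON replicate 2 (adjusted p = 0.0811, 0.0811 and 0.0641), and the count of 6 fell to 2 without either of those controls and to 3 without hSRY-OFF replicate 3. Without hSRY-ON replicate 1 it was 8.

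None of the growth factor and regulator genes passed the test. Of 16 growth factors, receptors and lineage regulators, 9 were tested, with a median log2 change of 0.17. Spi1, which encodes PU.1, read 6.355, 6.621 and 6.758 in hSRY-OFF and 6.759, 8.142 and 7.537 in hSRY-ON (0.90, adjusted p = 0.0830 by limma). Cebpa had a change of 0.57 (adjusted p = 0.0516). It passed the test under some alternatives, among them no background correction (adjusted p = 0.0318) and cyclic loess (adjusted p = 0.0446). Csf2ra, the alpha chain of the GM-CSF receptor, read 8.67, 8.55 and 8.70 in hSRY-OFF and 8.77, 10.07 and 9.39 in hSRY-ON, with a change of 0.77 and an adjusted p of 0.101 by limma. Its groups did not overlap, and it passed the test without hSRY-ON replicate 1 (adjusted p = 0.0135), where 4 genes of the list were called higher. The 3 probes of Csf2rb, the beta chain, were detected on no hSRY-OFF array and were not tested. One of them, ILMN_2688262, was detected on 2 hSRY-ON arrays and read 5.20, 4.998 and 5.02 in hSRY-OFF and 5.35, 7.08 and 6.42 in hSRY-ON, groups that did not overlap. Of 7 genes for beta-2 integrins, their ligands and adaptor, 3 were tested and none was called, with a median of 0.21. These were the ligands Icam1 (0.21) and Icam2 (-0.52, adjusted p = 0.0504 by limma) and the adaptor Fermt3 (0.91, adjusted p = 0.0606). No integrin chain was tested. Without background correction Icam2 was called lower and Fermt3 higher (adjusted p = 0.0229 and 0.0452), as under some other alternatives.

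**Figure D4:**
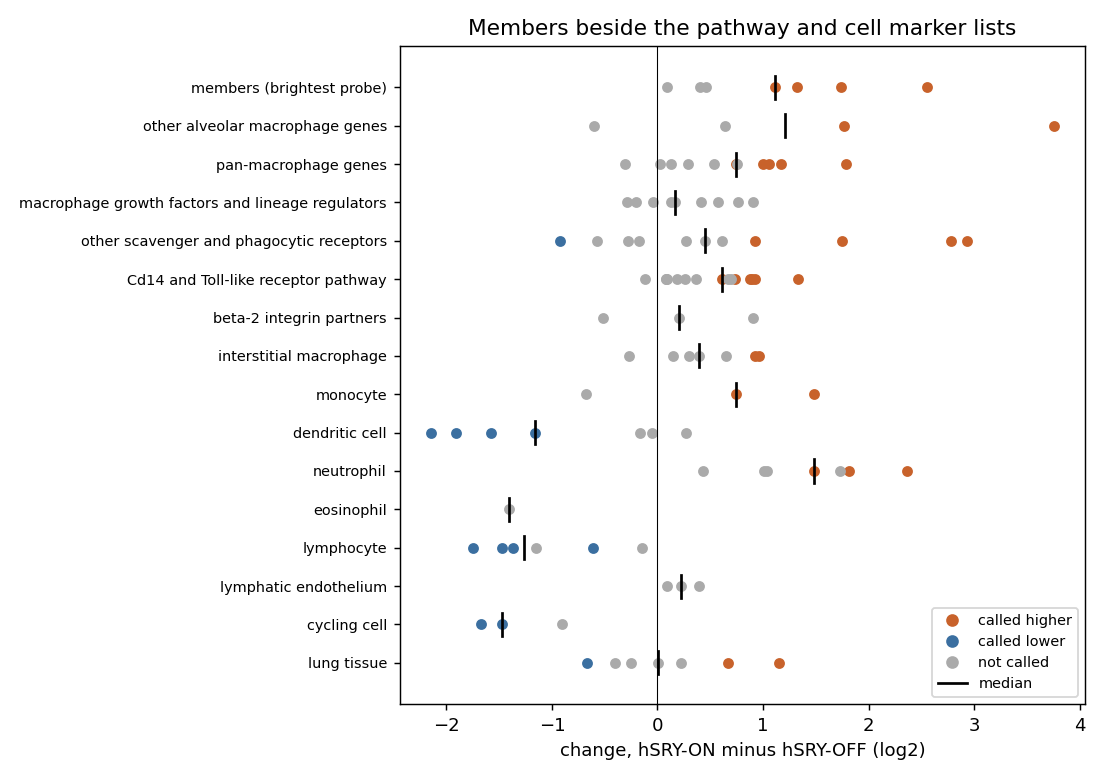
Log2 changes of the tested members and of the tested genes in each gene list, one point per gene by its brightest tested probe, coloured by its call, with a line at the list median. The macrophage and neutrophil lists have medians above 0, and those of dendritic cells, lymphocytes and cycling cells have medians below 0.

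Markers of several other cell types also differed between the groups, some higher and some lower in hSRY-ON, and their part in the results was not tested. The summed intensity of the neutrophil list was 5068 to 5800 in hSRY-OFF and 9037, 13750 and 34850 in hSRY-ON replicates 1, 2 and 3. Its highest value was in replicate 3, in which Marco and Ear2 were lowest. S100a8 is the brightest of the tested genes and weighs most in this sum. Of 11 neutrophil genes 7 were tested and 3 were higher, among them Ltf (2.36, adjusted p = 0.0122 by limma) and S100a8 (1.48, adjusted p = 0.0272), both granule or cytoplasmic proteins of neutrophils. The count fell to 0 without hSRY-OFF replicate 2 and to 1 without either of the other controls, and was 5 without hSRY-ON replicate 1. Camp and Ngp were tested and not called (adjusted p = 0.378 and 0.451 by limma). In hSRY-ON replicate 1 they read 6.70 and 6.19, below every control, and in replicate 3 they read 10.25 and 10.57, above every control. Elane and Cxcr2 were not detected.

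Among the monocyte markers, 3 of 6 were tested and 2 were higher, F13a1 by 1.49 (adjusted p = 0.00258 by limma) and Treml4 by 0.74 (adjusted p = 0.0120; 0.30 without background correction), while Ccr2 was not tested. The remaining one, Plac8, read 9.98, 10.23 and 10.29 in hSRY-OFF and 9.86, 8.70 and 9.90 in hSRY-ON, lower without overlap but not past the test (-0.68, adjusted p = 0.155). The summed intensity was 1637 to 1910 in hSRY-OFF and 1749 to 2910 in hSRY-ON. Among the 8 interstitial macrophage markers, 7 were tested and 2 were higher, C1qa by 0.96 (adjusted p = 0.0114) and C1qc by 0.93 (adjusted p = 0.0368), with sums of 3221 to 4101 and 4536 to 7561. Neither was called without hSRY-OFF replicate 1. Macrophages of several kinds express these complement genes.

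The antigen presentation genes in the dendritic cell list went the other way. Of its 13 genes 7 were tested and 4 were lower, among them Ciita, the regulator of MHC class II transcription (-1.91, adjusted p = 0.0114 by limma), and H2-Eb1, a class II chain (-1.16, adjusted p = 0.0129). Both were detected on 3 hSRY-OFF arrays and only 1 hSRY-ON array, so they passed the filter through the controls, and their hSRY-ON levels are only bounds. Without background correction the changes were -0.72 and -0.36, and the list median was -0.36 in place of -1.16. The summed intensity was 15000 to 16370 in hSRY-OFF and 3205, 4185 and 11140 in hSRY-ON. Cd74 and H2-Ab1, also class II pathway genes called lower, are the brightest of the tested genes and weigh most in it. Zbtb46 (0.27, adjusted p = 0.413 by limma), Itgae (-0.05, adjusted p = 0.947) and Ccr7 (-0.16, adjusted p = 0.676) were tested and not called. H2-Eb1 was not called without hSRY-OFF replicate 2 (adjusted p = 0.0533). The count of 4 was 1 to 2 without any one control or without hSRY-ON replicate 1 or 2. In the lymphocyte list 6 of 8 genes were tested and 4 were lower, among them Cd2 (-1.37, adjusted p = 0.00241) and Cd3e (-1.75, adjusted p = 0.0112), with sums of 1473 to 1798 and 690 to 1330. Without background correction these changes were -0.65 and -0.83. This count was 2 without any one control or without hSRY-ON replicate 1. In the cycling cell list 3 of 4 genes were tested and 2 were lower, Ccnb1 by -1.47 (adjusted p = 0.00788; -0.92 without background correction) and Top2a by -1.68 (adjusted p = 0.0131, and 0.0539 without hSRY-OFF replicate 1), with sums of 3492 to 4296 and 1078 to 2747.

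The eosinophil markers, which bear on Ear2 and Emr1, were near background. Prg2 was the only gene of 5 that was tested, was detected on 3 hSRY-OFF arrays and 1 hSRY-ON array, and was not called (-1.40, adjusted p = 0.0568 by limma; -0.48 without background correction). Leaving out hSRY-ON replicate 3 made it a call (adjusted p = 0.0232), as did median scaling (adjusted p = 0.0418) and the variance trend with robust estimation (adjusted p = 0.0443). Epx, Ccr3, Il5ra and Prg3 were not detected on enough arrays, and the summed intensity was 61.8 to 165.5 in hSRY-OFF and 26.2 to 60.3 in hSRY-ON. None of the 3 tested genes of the lymphatic endothelium list of 4 was called, with sums of 8370 to 9284 and 9837 to 11260. The tissue was lung by its own markers, whose summed intensity was 92060 to 96310 in hSRY-OFF and 85980 to 92830 in hSRY-ON. Of its 7 genes Sftpb (0.67, adjusted p = 0.00800 by limma), a surfactant protein, and Foxj1 (1.15, adjusted p = 0.00647; 0.45 without background correction), a regulator of ciliated cells, were higher and Cldn5 (-0.67, adjusted p = 0.00947), of endothelial junctions, was lower, while Sftpc did not pass the test (-0.25, adjusted p = 0.150). The median intensity per array before normalization was 177.1 to 204.0, and 13191 to 14134 probes were detected per array.

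**Figure D5:**
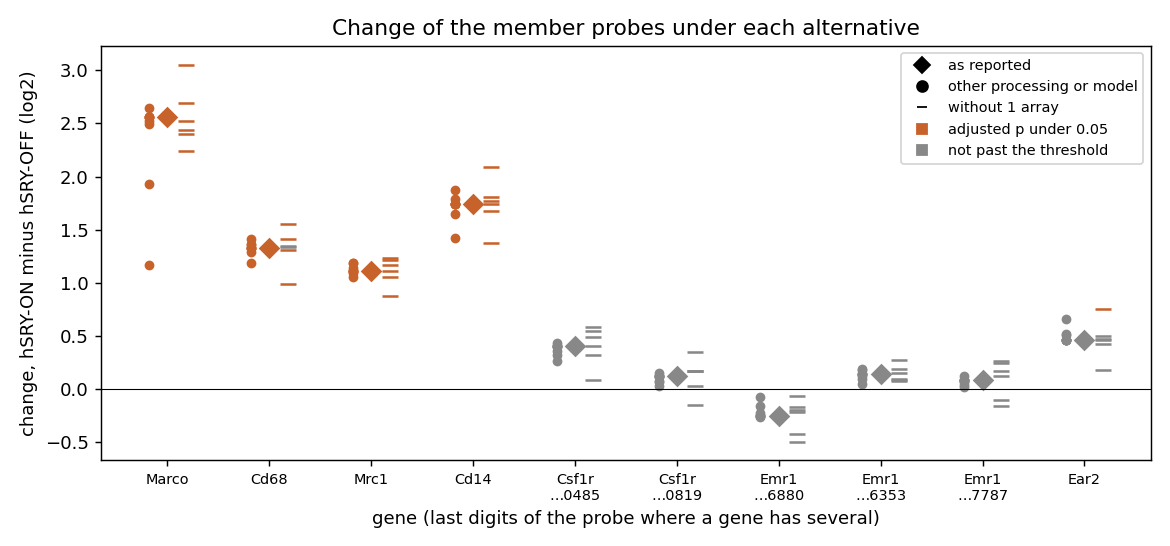
Log2 change of each tested member probe under the main setting and 15 alternatives, which are 9 other ways of processing or fitting the data and 6 fits that each leave out 1 array. Colour shows whether the adjusted p was under 0.05. Marco ranges from 1.17 to 3.05, Cd14 from 1.38 to 2.09, Cd68 from 0.99 to 1.55 and Mrc1 from 0.87 to 1.24, and all of these stay above 0.

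Marco, Mrc1 and Cd14 were called under all 15 alternatives, with adjusted p-values from 0.000852 to 0.0308 for Marco, from 0.00348 to 0.0473 for Mrc1 and from 0.00305 to 0.0440 for Cd14, by limma. These p-values weigh the difference between the groups against the spread within them. The labels do not say whether the mice of a group were from separate litters, so that spread may leave out variation between litters.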

How the data were processed

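Whole-lung RNA of 3 hSRY-OFF and 3 hSRY-ON mice was measured on Illumina MouseRef-8 v2.0 BeadChips. The authors deposited, for each probe and array, the non-normalized intensity of the scanner and a detection p-value, which compares the probe with negative controls. The background correction done by the scanner software and the arrays' places on the chips are not given in the sources used here. The study's methods name the package TCC, which is built for counts, so the intensities were analysed with limma instead. The submitters' processing notes name limma as well.

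Signals were background corrected and quantile normalized with neqc (limma 3.58.1, R 4.3.3, offset 16), which takes the background from the detection p-values, and put on the log2 scale. A probe was tested if 3 or more of the 6 arrays gave it a detection p-value under 0.05, which left 13841 of 25697 probes (53.9%). Groups were taken from the sample titles and compared with lmFit and eBayes over all kept probes, with no covariate, and p-values were adjusted by the Benjamini-Hochberg method over all 13841 probes with a threshold of 0.05. Intervals are at the 95% level. The number of arrays limits the precision. No arrays held identical values and all columns of per-sample values were mapped. The procedure was also run on simulated data with the same spread in both groups. Several member probes here had a wider spread in hSRY-ON, so that run is no support for the calls.

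All probes of the 9 members are reported. Outside them the text names the ligands, partners and pathway genes Csf1, Il34, Itgb2, Itgam, Tlr4, Ly96, Csf2ra, Csf2rb, Pparg, Siglecf, Cd36 and Ptprc, the 2 genes with the smallest p of each list and direction, each by its brightest tested probe, and the 5 genes most like Marco. Outside this rule, after their values were seen, the text names the remaining called genes of the pan-macrophage list and 3 relatives of Ear2. Lyz1, Lyz2, Car4, Plac8, Prg2, Chi3l4, Spi1, Cebpa, Cd74, H2-Ab1, Zbtb46, Itgae, Ccr7, Icam1, Icam2, Fermt3, Camp and Ngp are named in the same way. Of 154 list genes, 9 have no probe under the names searched. The members and lists were chosen with earlier results of these data known. Alternatives were no background correction, an offset of 50, median scaling, cyclic loess, no filter, detection on all 6 arrays, a variance trend with robust estimation, array weights, the replicate number as a block, and leaving out each array in turn. Promoter sequences are from RefSeq (GRCm38.p6).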

Additional observations from a re-analysis of the deposited data

How the results depend on the processing

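The count of member probes called higher was 4 under every alternative except 3 without hSRY-OFF replicate 1 or 2, where Cd68 was lost, and 5 without hSRY-ON replicate 3, where Ear2 was gained. The count called lower was 0 under all 15 alternatives by limma, and at an unadjusted p under 0.05 it was also 0 in the fit as reported. Over the whole array 3728 probes were called, and leaving out 1 array gave 1652 (without hSRY-OFF replicate 1) to 4442 (without hSRY-ON replicate 1). Without hSRY-OFF replicate 2 it was 1748, leaving out hSRY-OFF replicate 3 gave 2235, and dropping hSRY-ON replicate 2 gave 2462. With the replicate block the array gave 2655 calls and the members still gave 4, while Colec12, Tlr4 and Laptm5 were no longer called (adjusted p = 0.0598, 0.0528 and 0.0635) and Prg2 was (adjusted p = 0.00986). The deviations of same-numbered mice from their group means correlated with r = -0.11, 0.10 and -0.09. Such values cannot tell whether these mice shared a litter, a chip or a day of processing, which was not tested.

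The direction of 2 probes that did not pass the test turned when an array was left out. The log2 change of ILMN_2710819 (Csf1r) ran from -0.15 to 0.35, below 0 without hSRY-ON replicate 1, and that of ILMN_2847787 (Emr1) from -0.16 to 0.27, at -0.11 without hSRY-OFF replicate 2 and at -0.16 when hSRY-ON replicate 1 was left out. The cause was not tested. ILMN_1216880 (Emr1) was not detected on all 6 arrays and has no value under that filter. Signal near background limits what can be said of Marco in controls and of Msr1, Itgax and Emr1.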
